A study of Mus musculus with 203 samples.

Results

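The mRNAs of 9 myeloid transcription factors, Spi1, Cebpa, Cebpb, Cebpe, Irf5, Irf8, Batf, Mxd1 and Tfec, were followed in airway and parenchyma from mouse lungs exposed to house dust mite (HDM) extract, cigarette smoke (CS) and dexamethasone (DEX). The genes were listed by name and found through their Ensembl identifiers among the 43346 genes of the count table. All 9 passed the filter on low counts. The libraries, 43 at 3 weeks and 160 at 11 weeks, were RNA-seq of bulk tissue from female Balb/C mice labelled as 18 to 20 weeks old, in 20 groups. At 3 weeks, mice had received intranasal HDM or the PBS vehicle on 5 days per week for 3 weeks, which gave 11 PBS and 10 HDM airway libraries and 12 PBS and 10 HDM parenchyma libraries. At 11 weeks, 8 exposures were sampled in each tissue with 10 libraries each. PBS or HDM was given as before and then 3 times a week in weeks 4 to 11, mice breathed air or were exposed to CS on 5 days per week for 8 weeks, and some of each received DEX during week 11. Groups are named by these parts, so HDM.CS.DEX had all of them and PBS.AIR none. Airway and parenchyma were separated by blunt dissection, and no label ties the airway library of a mouse to its parenchyma library, although neighbouring library codes hold both tissues of an exposure.

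These factors act at successive steps of myeloid development and activation. Spi1 encodes PU.1, the ETS-family factor that myeloid and B cell development requires, and the C/EBP family members Cebpa, Cebpb and Cebpe act in granulocyte and macrophage differentiation, Cebpe in the late steps of granulocyte maturation. Irf8 directs monocyte and dendritic cell fates and is also expressed in B cells, while Irf5 drives inflammatory cytokine genes downstream of Toll-like receptors. Batf is an AP-1 family factor of lymphoid and dendritic cells, Mxd1 opposes Myc by pairing with Max as cells differentiate, and Tfec is an MiT-family factor largely restricted to macrophages. PU.1 binds a GGAA core, often with an interferon regulatory factor or a C/EBP protein close by. The glucocorticoid receptor that DEX activates both induces and represses genes. Since the libraries are bulk tissue, fewer cells of a type and less of an RNA per cell cannot be told apart.

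Promoters of Irf8, Irf5 and Tfec are shown because Irf8 and Irf5 moved together under DEX and Tfec with Spi1 under smoke. Each run is the 250 bases upstream of the transcript start, 5′ to 3′, from RefSeq on GRCm38.p6. Of the 9 members, 7 had a promoter entry, and Spi1 and Cebpe did not. Irf8 had entries for 2 transcript starts, of which the one at the gene's annotated start is shown. Capitals mark ETS cores (GGAA, either strand).
Irf8, chr8:120736108-120736357, plus strand: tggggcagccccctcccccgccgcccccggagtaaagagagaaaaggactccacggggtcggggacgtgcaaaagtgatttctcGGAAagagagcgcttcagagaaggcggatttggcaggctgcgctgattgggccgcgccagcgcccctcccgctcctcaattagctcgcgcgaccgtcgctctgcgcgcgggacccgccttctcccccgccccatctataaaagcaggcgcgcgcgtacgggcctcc
Irf5, chr6:29526375-29526624, plus strand: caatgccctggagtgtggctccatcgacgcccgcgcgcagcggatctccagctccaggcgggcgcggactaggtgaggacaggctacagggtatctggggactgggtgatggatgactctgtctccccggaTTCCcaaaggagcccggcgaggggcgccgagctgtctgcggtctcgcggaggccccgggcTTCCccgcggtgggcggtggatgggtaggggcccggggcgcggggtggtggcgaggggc
Tfec, chr6:16898442-16898691, minus strand: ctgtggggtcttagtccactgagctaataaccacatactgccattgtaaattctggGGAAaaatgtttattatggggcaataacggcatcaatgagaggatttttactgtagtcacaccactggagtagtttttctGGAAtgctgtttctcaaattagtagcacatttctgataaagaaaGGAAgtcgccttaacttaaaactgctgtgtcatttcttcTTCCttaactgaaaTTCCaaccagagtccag
Tfec had 5 ETS cores, Irf5 had 2 and the Irf8 window shown had 1, and 93.4% of the 32851 mouse promoters of this length held at least 1. The glucocorticoid half-site AGAACA, which 16.1% of all promoters held, was matched in none of the 7 members' windows. The window at the other Irf8 start, which lies downstream at position 120738639, had 2 ETS cores, 54% G and C and 8 CpG dinucleotides. These matches describe letters in a window and are not evidence of binding. The promoters also differed in base composition, since G and C made up 39.2% of the Tfec, 67.2% of the shown Irf8 and 72% of the Irf5 window, with 2, 29 and 25 CpG dinucleotides.

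All 9 genes were single protein-coding genes on GRCm38, from Cebpa and Cebpb with 1 exon to Irf5 with 13 exons in the union of its transcripts. On the plus strand lay Spi1 at chr2:91082390-91115756, Cebpa at chr7:35119293-35121928, Cebpb at chr2:167688915-167690418, Irf5 at chr6:29526625-29541871, Irf8 at chr8:120736358-120756694 and Batf at chr12:85686669-85709087, and on the minus strand Cebpe at chr14:54710360-54712174, Mxd1 at chr6:86647042-86669161 and Tfec at chr6:16833373-16898441. The annotation places another gene over 5 of them, and whether the counting used strand is not stated. The exons of Cebpb overlap those of Tmem189 on the opposite strand by 312 bases, and those of Irf5 overlap those of Tnpo3 by 411 bases, so reads there cannot be told apart without strand. Irf8 lies within a same-strand read-through gene, Gm20388. Over the 20 comparisons between groups of a tissue at 11 weeks, Tnpo3 differed by a log2 fold change between -0.06 and 0.14, whereas Tmem189 ranged from -0.13 to 0.94 and Gm20388 from -0.08 to 0.71.

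The library total was between 13003154 and 40240733 counts at 11 weeks and between 18756105 and 37065455 at 3 weeks, and levels are given as CPM, the usual depth-scaled count, scaled further by the trimmed mean of M values (TMM). Cyp1a1, which smoke induces through the aryl hydrocarbon receptor, was at 16.5 CPM or more in PBS.CS airways (median 49.5) against 2.88 to 10.6 CPM in PBS.AIR airways, and did not overlap. In HDM.CS.DEX airways Cyp1a1 was at 3.46 to 113.8 CPM and overlapped PBS.AIR. Tsc22d3, a gene that glucocorticoids induce, was lower and not higher in PBS.AIR.DEX than in PBS.AIR airways (median 78.9 against 183.6 CPM). Of other genes that glucocorticoids induce, Per1 and Zbtb16 were lower as well (medians 15.5 against 31.9 and 9.78 against 24.1 CPM), and Fkbp5 had a log2 fold change of -0.02 ± 0.22 (adjusted p = 0.960). The labels do not give the time between the last DEX dose and collection. The ciliated cell marker Foxj1 and the smooth muscle marker Myh11 separated airway from parenchyma libraries in 6 and 8 of 10 exposures, and the alveolar markers Sftpc and Ager in 2 and 4. In PBS.AIR libraries the Myh11 median was 214.5 CPM in airway and 33.8 CPM in parenchyma, and the Ager median was 1259.7 and 2699.2 CPM, so neither marker was absent from the other tissue. Ptprc, which encodes the pan-leukocyte antigen CD45, is given beside the members below as a measure of leukocyte RNA.

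**Figure D1:**
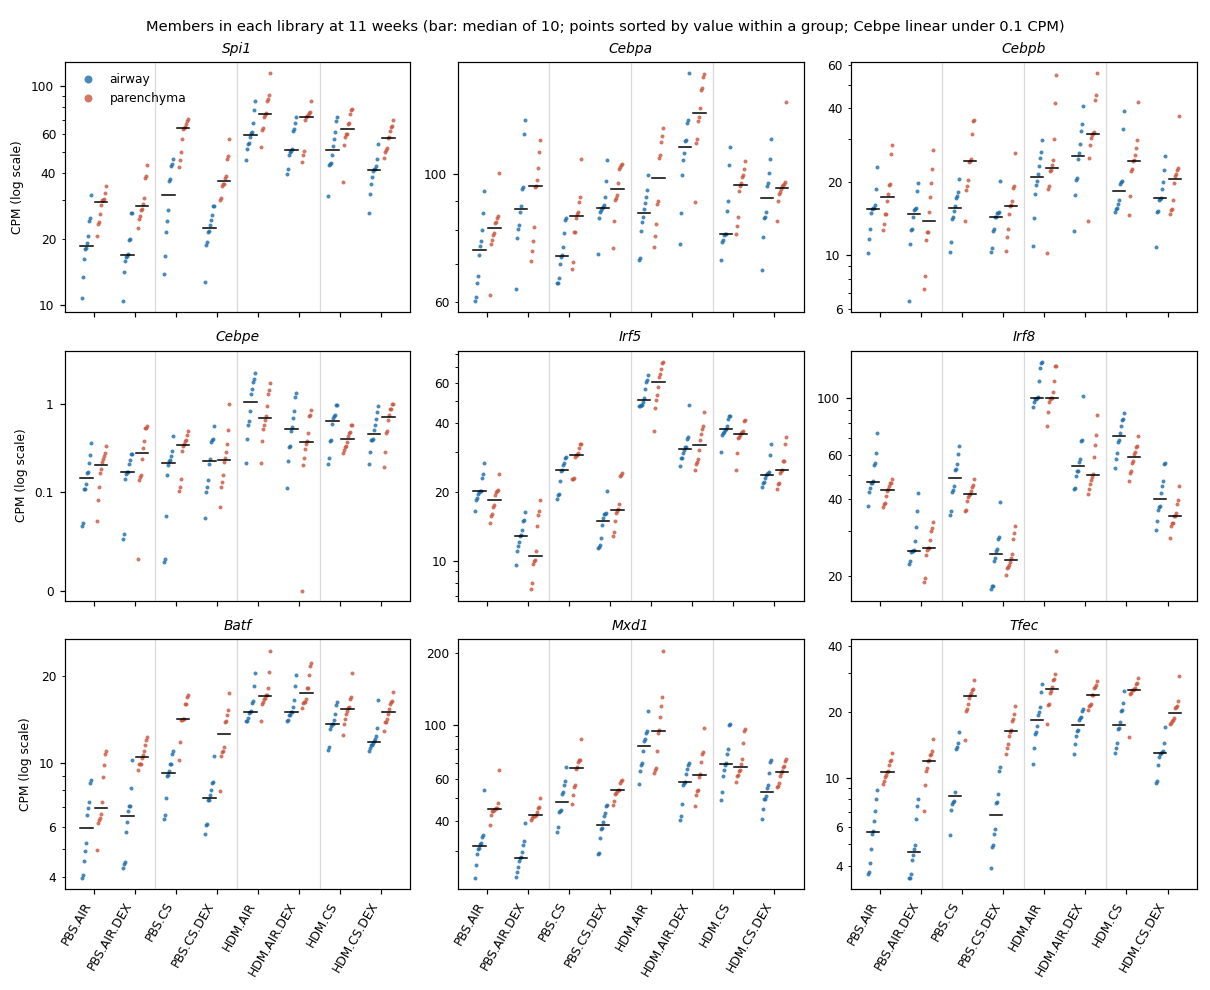
Level of each member in every library at 11 weeks, in TMM-scaled CPM on a log axis (for Cebpe linear under 0.1 CPM), for 8 exposures in airway (blue) and parenchyma (red), with the median of 10 libraries as a bar. Irf5 and Irf8 are lower in every DEX group than in its counterpart without DEX, and Spi1, Batf and Tfec stand higher in both PBS.CS groups than in PBS.AIR.

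HDM exposure for 11 weeks raised 8 of the 9 members in airway and all 9 in parenchyma. The lineage factor Spi1 lay at 10.8 to 31.6 CPM (median 18.6) in PBS.AIR airways and at 45.6 to 85.4 CPM (median 59.4) in HDM.AIR airways. In parenchyma Spi1 was at 20.7 to 34.9 CPM (median 29.3) without HDM and at 52.4 to 113.9 CPM (median 74.4) with it. No HDM library fell within the range of its PBS group in either tissue. The log2 fold change was 1.69 ± 0.16 (SE) in airway (adjusted p = 7.86e-19, limma-voom) and 1.5 ± 0.15 in parenchyma (adjusted p = 1.32e-16). Among all genes tested at 11 weeks, 31.3% were called higher and 29.8% lower in airway, and 32.6% higher and 26.9% lower in parenchyma, at an adjusted p under 0.05.

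The interferon regulatory factors behaved alike under HDM. Irf5 was at 16.5 to 26.8 CPM in PBS.AIR airways and at 47.4 to 65 CPM in HDM.AIR airways, and at 14.6 to 23.9 and 36.9 to 73.9 CPM in parenchyma. Irf8 went from 37.8 to 73.2 CPM to between 92.2 and 138.96 CPM in airway, and from 37.3 to 48.1 CPM to between 78 and 134.5 CPM in parenchyma. For both genes HDM and PBS libraries were apart in both tissues. The log2 fold change of Irf5 was 1.39 ± 0.11 in airway and 1.70 ± 0.11 in parenchyma, and that of Irf8 was 1.15 ± 0.11 and 1.32 ± 0.12, with adjusted p values from 3.53e-30 to 3.41e-17. Batf rose by 1.43 ± 0.12 and 1.26 ± 0.12, Tfec by 1.70 ± 0.16 and 1.26 ± 0.14, and Mxd1 by 1.33 ± 0.13 and 1.10 ± 0.13 on the log2 scale. Batf and Tfec libraries did not overlap between HDM.AIR and PBS.AIR in either tissue, whereas in parenchyma 8 of 10 HDM.AIR libraries were above all PBS.AIR libraries for Mxd1.

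The C/EBP members were less uniform. Cebpe had the largest fitted rise and the lowest level, at 0.0656 to 0.365 CPM (2 to 10 counts) in PBS.AIR airways and 0.216 to 2.27 CPM (6 to 55 counts) in HDM.AIR airways. Its log2 fold change was 2.52 ± 0.43 in airway and 1.93 ± 0.43 in parenchyma, and at such counts the size of the fold is imprecise. Cebpa, the most abundant member per kilobase of exon in PBS.AIR, rose by only 0.23 ± 0.09 (adjusted p = 0.0232) and 0.30 ± 0.09 (adjusted p = 0.00287). Cebpb rose in parenchyma by 0.50 ± 0.20 (adjusted p = 0.0231), and in airway its log2 fold change of 0.43 ± 0.20 did not pass the limma-voom test (adjusted p = 0.0596), while edgeR called it (adjusted p = 0.0389). By DESeq2 the Cebpa rise in airway was not called (adjusted p = 0.0646), and without libraries X173 and X174, whose codes break the alternation of tissues in the labels, neither was the Cebpb rise in parenchyma (adjusted p = 0.0576, limma-voom). The antisense neighbour of Cebpb, Tmem189, rose by 0.94 ± 0.08 and 0.71 ± 0.08, and its part in the Cebpb values was not tested. None of the tissue differences of the HDM effect at 11 weeks passed the limma-voom test for any member, 2 of 9 had an unadjusted p under 0.05, and edgeR and DESeq2 called 0, against 12.7% of all genes called higher and 14.9% lower. With libraries of neighbouring codes taken as pairs, the difference was called for Irf5 (-0.31, adjusted p = 0.0307) and Tfec (0.44, adjusted p = 0.0477).

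Leukocyte RNA rose with the members. Ptprc was at 137.3 to 282.3 CPM in PBS.AIR and 347.1 to 517.1 CPM in HDM.AIR airways, and its medians in parenchyma were 219.8 and 412.5 CPM, a log2 fold change of 1.29 and 1.01. The summed level of 10 macrophage markers was 569.2 to 976.1 CPM in PBS.AIR and 1709.7 to 10237.5 CPM in HDM.AIR airways, and that of 8 neutrophil markers was 63 to 415.5 and 325.4 to 1125.8 CPM. Lymphocyte markers rose too, all 7 of T cells and all 6 of B cells in each tissue, with summed medians in airway of 58.3 and 180.1 CPM for T cells and 133.1 and 471.0 CPM for B cells. Relative to Ptprc (log2 of the CPM ratio, mean ± SD of 10 libraries), Spi1 was at -3.20 ± 0.41 in PBS.AIR and -2.80 ± 0.28 in HDM.AIR airways, whereas Cebpa went from -1.25 ± 0.41 to -2.32 ± 0.29. Since Ptprc itself rose, a gene that rose less, such as Cebpa, is lower relative to it whichever cells express it. Which cells of the tissue hold the Cebpa RNA was not tested. The part of cell numbers in these results was not tested.

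Smoke alone raised 4 of 9 members in airway, namely Spi1, Batf, Mxd1 and Tfec, and 5 of 9 in parenchyma, the same 4 and Irf5. Of all genes, 7.66% were called higher and 6.03% lower in airway, and 17.7% higher and 18.2% lower in parenchyma. In parenchyma Spi1 was at 42.3 to 70.6 CPM (median 63.8) in PBS.CS, above all PBS.AIR libraries, and Tfec at 14.9 to 27.9 CPM against 9.43 to 13 CPM. Their log2 fold changes were 1.09 ± 0.15 (adjusted p = 1.5e-09) and 1.04 ± 0.14 (adjusted p = 4.35e-10). Batf rose by 0.93 ± 0.12, Irf5 by 0.61 ± 0.11 and Mxd1 by 0.48 ± 0.12, with 9, 7 and 6 of 10 libraries above all controls.

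The rise in airway was smaller in fitted size and the groups overlapped. Spi1 was at 13.7 to 46.3 CPM (median 31.8) in PBS.CS airways, and 5 of 10 libraries were above all PBS.AIR libraries. The log2 fold change was 0.60 ± 0.16 for Spi1 (adjusted p = 0.00502), 0.58 ± 0.13 for Batf, 0.59 ± 0.13 for Mxd1 and 0.78 ± 0.17 for Tfec. The difference between tissues did not pass the test for any member. It was -0.50 ± 0.22 for Spi1 (adjusted p = 0.211) and -0.41 ± 0.16 for Irf5 (adjusted p = 0.129), 3 of 9 members had an unadjusted p under 0.05, and edgeR and DESeq2 called 0, beside 0.685% of all genes called higher and 3.04% lower. With neighbouring codes taken as pairs, Irf5 was called (adjusted p = 0.0153).

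Irf8 did not pass the test under smoke in either tissue. Its median was 48.5 CPM in PBS.CS and 46.8 CPM in PBS.AIR airways, and 41.9 and 43.6 CPM in parenchyma. The log2 fold change was -0.07 (95% interval -0.29 to 0.15) in airway and -0.03 (-0.26 to 0.20) in parenchyma, so a rise of the size seen in Spi1 lay outside both intervals. Irf5 in airway had a log2 fold change of 0.20 ± 0.11 (adjusted p = 0.252), and Cebpb in parenchyma 0.44 ± 0.20 (adjusted p = 0.0708). Ptprc did not pass the test under smoke in either tissue, with a log2 fold change of 0.20 in airway and 0.02 in parenchyma. Relative to Ptprc, Spi1 in parenchyma was at -2.97 ± 0.32 in PBS.AIR and -1.90 ± 0.35 in PBS.CS, and Tfec at -4.30 ± 0.22 and -3.28 ± 0.42, in both cases without overlap. Of 10 macrophage markers 9 rose in each tissue, and of 8 neutrophil markers 8 rose in airway and 7 in parenchyma, while 0 of 7 T cell and 0 of 6 B cell markers were called in either direction. Summed macrophage markers were at 876.8 to 1548.3 CPM in PBS.AIR and 2725.6 to 4370.1 CPM in PBS.CS parenchyma, and their part in the rise of Spi1 and Tfec was not tested.

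**Figure D2:**
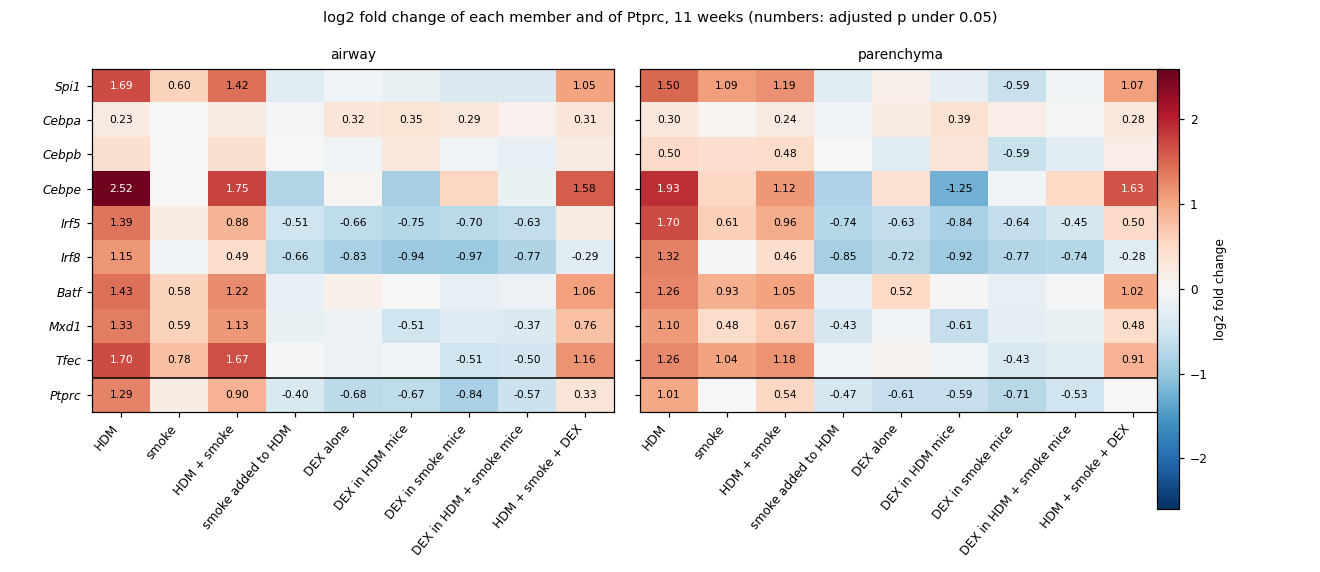
Log2 fold change of the 9 members and of Ptprc in 9 comparisons at 11 weeks in airway (left) and parenchyma (right), colour from -2.6 (blue) to 2.6 (red), with the value printed where the adjusted p was under 0.05. The columns for HDM are red throughout, and the rows of Irf5 and Irf8 are blue in all 4 DEX columns of both tissues.

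HDM and smoke together gave less than the sum of the separate effects for 6 of the 9 members. Against PBS.AIR, HDM.CS raised 7 of 9 members in airway, where 25.2% of all genes were called higher and 23.8% lower, and 9 of 9 in parenchyma, where 25.4% were higher. The interaction of HDM with smoke was negative for the same 6 members in both tissues, Spi1, Irf5, Irf8, Batf, Mxd1 and Tfec, and passed the limma-voom test for no other. In parenchyma edgeR and DESeq2 also called Cebpe (adjusted p = 0.0112 and 0.00883), whose interaction by limma-voom was -1.34 ± 0.61 (adjusted p = 0.0724). In airway it ranged from -0.87 ± 0.22 for Spi1 (adjusted p = 0.00192) to -0.59 ± 0.16 for Irf8 (adjusted p = 0.00407). In parenchyma it ranged from -1.40 ± 0.21 for Spi1 (adjusted p = 1.93e-08) to -0.82 ± 0.16 for Irf8 (adjusted p = 1.3e-05). Among all genes the interaction was called negative for 11.4% and positive for 7.72% in airway, and for 18.7% and 17.3% in parenchyma. Ptprc had a negative interaction as well by limma-voom. It was -0.60 ± 0.20 in airway (adjusted p = 0.0205) and -0.48 ± 0.20 in parenchyma (adjusted p = 0.0419). The part of cell numbers in the interaction was not tested.

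In parenchyma Spi1 had similar medians with smoke, HDM or both. They were 63.8 CPM in PBS.CS and 63.5 CPM in HDM.CS, beside 74.4 CPM in HDM.AIR. Under smoke the log2 fold change of HDM on Spi1 was 0.10 (95% interval -0.19 to 0.39) and that on Tfec was 0.14 (-0.10 to 0.38). Only Irf5 and Irf8 still passed the test for HDM under smoke there, at 0.34 ± 0.11 and 0.49 ± 0.11, while 7.52% of all genes were called higher and 2.42% lower. In airway HDM under smoke still raised 7 members, Spi1 by 0.83 ± 0.15 and Tfec by 0.88 ± 0.14, where 17.5% of all genes were higher and 15.6% lower. Ptprc also rose with HDM under smoke by limma-voom. The rise was 0.52 ± 0.14 in parenchyma (adjusted p = 0.00425) and 0.70 ± 0.14 in airway (adjusted p = 1.96e-05).

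Smoke added to HDM lowered the interferon regulatory factors. Irf5 was at 47.4 to 65 CPM in HDM.AIR airways and at 30 to 42.9 CPM in HDM.CS airways, and Irf8 at 92.2 to 138.96 and 52.9 to 87.2 CPM, with no overlap for either. In parenchyma Irf8 was at 78 to 134.5 CPM in HDM.AIR and at 47.1 to 71.3 CPM in HDM.CS, also apart, and Irf5 overlapped. The log2 fold change was -0.51 ± 0.10 and -0.74 ± 0.10 for Irf5, and -0.66 ± 0.11 and -0.85 ± 0.11 for Irf8, in airway and parenchyma (adjusted p from 1.99e-09 to 6.24e-05). Mxd1 fell by 0.43 on the log2 scale in parenchyma (adjusted p = 0.00517). Spi1 had a log2 fold change of -0.27 ± 0.15 in airway (adjusted p = 0.213) and -0.31 ± 0.15 in parenchyma (adjusted p = 0.113). Of all genes, 10.1% were called lower and 6.07% higher in airway, and 14.1% lower and 10.0% higher in parenchyma. Ptprc fell as well, by 0.40 and 0.47 on the log2 scale, with 5 of 7 T cell and 3 of 6 B cell markers in airway and all 7 and all 6 in parenchyma, while 0 of 10 macrophage markers fell in airway and 1 in parenchyma. Of 7 dendritic cell markers 4 fell in each tissue, and summed they were at 97.2 to 129.98 CPM in HDM.AIR and 70.7 to 92.3 CPM in HDM.CS parenchyma, without overlap, with medians of 107.1 and 81.9 CPM in airway. The part of these cell types in the Irf5 and Irf8 results was not tested.

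**Figure D3:**
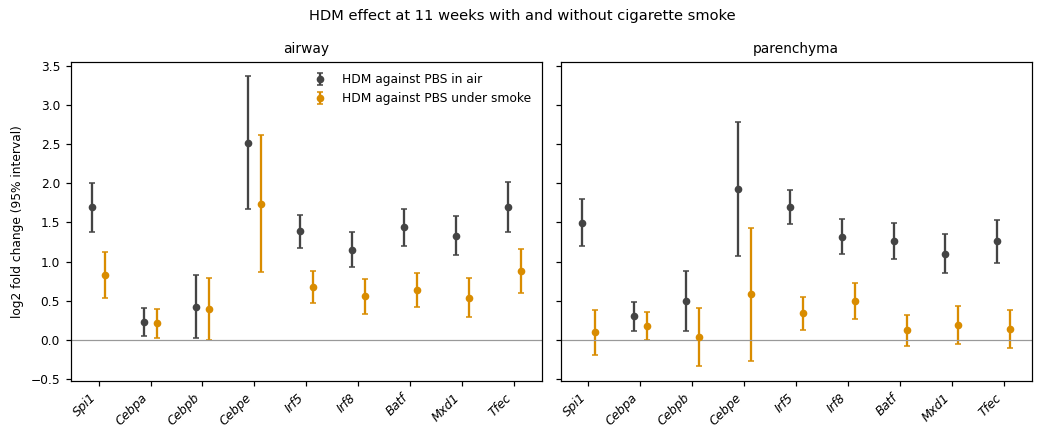
Log2 fold change of HDM against PBS for each member in air (grey) and under smoke (orange) at 11 weeks, with 95% intervals, in airway and parenchyma. The interaction passed the test for 6 members in each tissue, and in parenchyma under smoke all points lie below 0.6.

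DEX lowered Irf5 and Irf8 in all 8 comparisons, with PBS, HDM, smoke or HDM plus smoke and in both tissues. No other member fell in more than 3. In mice without HDM or smoke, Irf5 in airway went from 16.5 to 26.8 CPM (median 20.1) to between 9.63 and 16.3 CPM (median 12.9), and Irf8 from a median of 46.8 to 25 CPM. In HDM.AIR airways the Irf5 median went from 50.5 to 30.9 CPM with DEX and the Irf8 median from 100.5 to 54 CPM. For Irf8 in parenchyma, the libraries with and without DEX did not overlap in 3 of the 4 exposures. Over the 8 comparisons the log2 fold change of Irf8 was between -0.97 and -0.72, with adjusted p values from 8.97e-12 to 8.42e-07, and that of Irf5 was between -0.84 and -0.45, with adjusted p values from 3.08e-11 to 0.00191.

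The other members gave a mixed pattern. DEX alone was followed by a rise of Cebpa in airway (0.32 ± 0.09, adjusted p = 0.0101) and of Batf in parenchyma (0.52 ± 0.12, adjusted p = 0.000612), where Batf was at 4.98 to 10.9 CPM without and 9.41 to 12.2 CPM with DEX. Among all genes, 8.03% were called higher and 6.85% lower in airway, and 10.6% higher and 12.0% lower in parenchyma. Batf in airway had a log2 fold change of 0.14 ± 0.14 (adjusted p = 0.552), and the difference between tissues of -0.38 ± 0.18 did not pass the test (adjusted p = 0.376). No member passed that test of the tissues, 1 of 9 had an unadjusted p under 0.05, and edgeR and DESeq2 called 0, as 0.170% of all genes were called higher and 0.110% lower.

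In HDM mice DEX lowered Mxd1 by 0.51 and 0.61 on the log2 scale in airway and parenchyma (adjusted p = 0.000565 and 5.24e-05) and raised Cebpa by 0.35 ± 0.09 and 0.39 ± 0.09. Cebpe fell in parenchyma by 1.25 ± 0.40 (adjusted p = 0.0107), where counts were 6 to 47 without and 0 to 21 with DEX, and in airway its log2 fold change was -0.86 ± 0.35 (adjusted p = 0.0508). Of all genes, 16.0% were lower and 12.5% higher in airway, and 16.2% lower and 12.2% higher in parenchyma. In smoke mice Tfec fell by 0.51 and 0.43, in HDM plus smoke mice in airway by 0.50, and Mxd1 there by 0.37 on the log2 scale. In smoke mice 6.60% of all genes were lower and 4.68% higher in airway, and 9.49% lower and 7.39% higher in parenchyma, and in HDM plus smoke mice 7.05% were lower and 2.25% higher in airway, and 5.40% lower and 2.46% higher in parenchyma. Cebpa was also higher with DEX in smoke airways, by 0.29 ± 0.09 (adjusted p = 0.0218).

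Spi1 changed with DEX in 1 of the 8 comparisons. In smoke parenchyma it went from 42.3 to 70.6 CPM (median 63.8) to between 30.2 and 57 CPM (median 36.7), a log2 fold change of -0.59 ± 0.15 (adjusted p = 0.002), with 7 of 10 DEX libraries below all others. Cebpb fell in the same comparison by 0.59 (adjusted p = 0.0283), where Tmem189 had a log2 fold change of -0.09, and was not called without X173 and X174 (adjusted p = 0.0688). DEX alone gave Spi1 a log2 fold change of -0.07 (95% interval -0.41 to 0.26) in airway and 0.13 (-0.18 to 0.44) in parenchyma, and in HDM mice -0.19 (-0.47 to 0.10) and -0.23 (-0.52 to 0.06). In smoke airways it was -0.37 (-0.69 to -0.06, adjusted p = 0.117), a fall that edgeR called (adjusted p = 0.0327). In HDM plus smoke mice it was -0.38 (-0.67 to -0.08, adjusted p = 0.0960) in airway and -0.12 (-0.41 to 0.17) in parenchyma.

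Tests of the difference between DEX effects passed for few members. In parenchyma the DEX effect was lower with smoke than without for Spi1 (-0.72 ± 0.22, adjusted p = 0.0382) and Batf (-0.73 ± 0.16, adjusted p = 0.00181), where 2.25% of all genes were called lower and 0.970% higher. Without X173 and X174 the adjusted p of Spi1 was 0.080. It was lower with HDM than without for Batf (-0.48 ± 0.16, adjusted p = 0.0284) and Mxd1 (-0.54 ± 0.18, adjusted p = 0.0289), where 6.38% were lower and 6.02% higher, and edgeR did not call Batf (adjusted p = 0.0575). In airway no member passed by limma-voom, edgeR or DESeq2 for HDM, smoke or both, 1 of 9 had an unadjusted p under 0.05 for HDM and 0 for the others, while 3.52%, 0.0603% and 0.307% of all genes were called lower and 1.11%, 0.0219% and 0.0658% higher. For HDM plus smoke in parenchyma 0 members passed by any of these tools, 1 had an unadjusted p under 0.05, and 0.805% of all genes were called lower and 0.422% higher, with Batf at -0.56 ± 0.16 (adjusted p = 0.0506).

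Ptprc fell in all 8 DEX comparisons, by a log2 fold change between -0.84 and -0.53, a size near that of Irf5. Relative to Ptprc, Irf5 differed with DEX by between -0.25 and 0.14 and was lower in 4 of 8 comparisons, and Irf8 by between -0.34 and -0.07 and was lower in 8 of 8. Cebpa was higher relative to Ptprc in 8 of 8, by 0.57 to 1.14, as were Batf, by 0.41 to 1.11, and Spi1, by 0.12 to 0.74. Cebpb, by 0.13 to 0.97, and Tfec, by 0.08 to 0.69, were also higher in 8 of 8, Mxd1 in 7 and Cebpe in 6. Since Ptprc itself fell, any gene of unchanged CPM is higher relative to it by 0.53 to 0.84. The median log2 fold change over all genes was between -0.02 and 0.01 in these comparisons. A higher ratio is therefore not a result particular to these members. Apart from Cebpa in HDM mice, the ratios of libraries with and without DEX overlapped. The summed level of 7 dendritic cell markers was 89.6 to 172.4 CPM in HDM.AIR and 49.4 to 91 CPM in HDM.AIR.DEX airways, and that of 6 B cell markers 282.4 to 627.6 and 100.8 to 307.8 CPM. In the 8 comparisons all 6 B cell markers fell, 5 or 6 of the 7 dendritic cell markers and 5 to 7 of the 7 T cell markers. Of all genes, 5.40% to 16.2% were called lower in these comparisons. With DEX alone the summed T cell medians went from 58.3 to 21.6 CPM in airway and from 51 to 27 CPM in parenchyma, and those of 6 monocyte markers from 794.9 to 648.3 and from 1441.2 to 959.0 CPM. Of the monocyte markers 1 to 3 fell in each comparison. Of the 10 macrophage markers 0 fell in the 4 airway comparisons, and in parenchyma 1 fell with DEX alone, 3 in HDM, 4 in smoke and 0 in HDM plus smoke mice. With DEX alone 3 macrophage markers rose in each tissue, where 8.03% and 10.6% of all genes were called higher. Summed macrophage markers stood at 1709.7 to 10237.5 CPM in HDM.AIR and 3089.1 to 6670.4 CPM in HDM.AIR.DEX airways. No marker of these 5 lists had a group median under 0.05 CPM at 11 weeks, and their part in the Irf5 and Irf8 results was not tested.

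**Figure D4:**
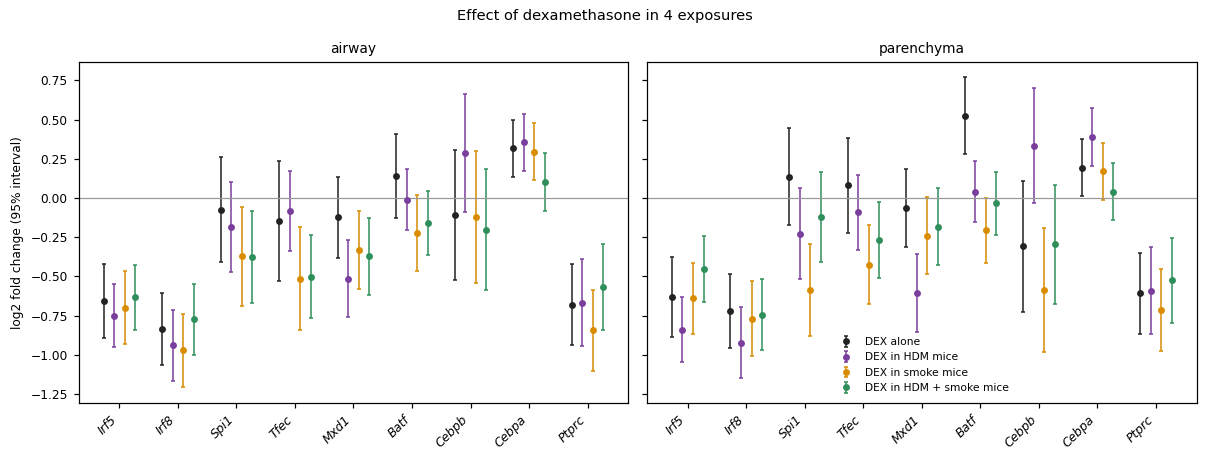
Log2 fold change with DEX in 4 exposures for 8 members and Ptprc, with 95% intervals, in airway and parenchyma. All 16 points of Irf5 and Irf8 lie between -0.97 and -0.45, beside Ptprc between -0.84 and -0.53, and all points of Cebpa lie above 0.

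Mice with HDM, smoke and DEX still differed from untreated mice in most members. Against PBS.AIR, Spi1 was higher by 1.05 ± 0.16 in airway and 1.07 ± 0.15 in parenchyma, Tfec by 1.16 ± 0.17 and 0.91 ± 0.14, Batf by 1.06 ± 0.12 and 1.02 ± 0.12, and Mxd1 by 0.76 ± 0.13 and 0.48 ± 0.12. In airway 6 members were higher and in parenchyma 7, and 1 was lower in each. That one was Irf8, which fell by 0.29 and 0.28 on the log2 scale (adjusted p = 0.0315 and 0.0358), and with no filter on low counts was not called (adjusted p = 0.0628 and 0.0933). Its levels were 30.3 to 55.5 CPM in HDM.CS.DEX airways against 37.8 to 73.2 CPM in PBS.AIR, and 28.2 to 45 against 37.3 to 48.1 CPM in parenchyma. Irf5 was higher in parenchyma by 0.50 ± 0.12, and in airway its log2 fold change was 0.24 ± 0.11 (adjusted p = 0.0661). Of all genes, 21.8% were called higher and 22.2% lower in airway, and 26.4% and 24.9% in parenchyma. The comparisons in these paragraphs share the PBS.AIR, HDM.AIR, PBS.CS and HDM.CS libraries, so they are not independent of each other.

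Without HDM, smoke or DEX at 11 weeks, 4 members were lower in airway than in parenchyma, where 30.1% of all genes were called lower in airway and 26.3% higher. Tfec was at 3.65 to 8.83 CPM in airway and 9.43 to 13 CPM in parenchyma, a log2 difference of -0.95 ± 0.17 (adjusted p = 9.3e-07) with no overlap. Spi1 differed by -0.53 ± 0.16, Mxd1 by -0.50 ± 0.13 and Batf by -0.34 ± 0.14. Irf8 lay the other way, at 0.25 ± 0.11, and did not pass the test (adjusted p = 0.057), though it was called by edgeR (adjusted p = 0.0455) and with neighbouring codes taken as pairs (adjusted p = 0.0101), and Batf was not called with no filter on low counts (adjusted p = 0.0686). In PBS mice at 3 weeks Irf8 was higher in airway by 0.28 ± 0.10 (adjusted p = 0.0176), and Cebpb, Batf and Tfec were lower, by 0.59, 0.34 and 0.84 on the log2 scale, with 24.3% of all genes called higher and 31.7% lower. Spi1 and Mxd1 were not called at 3 weeks. Their airway medians were then 0.994 and 0.889 times those in parenchyma, against 0.633 and 0.705 times at 11 weeks. Ptprc was lower in airway as well, with a log2 difference of -0.30 ± 0.13 at 11 weeks (adjusted p = 0.0433, limma-voom). In PBS mice at 3 weeks it was -0.36 ± 0.09 (adjusted p = 0.000683). The part of leukocyte numbers in the tissue differences was not tested. Airway and parenchyma libraries were treated as independent unless pairs are named.

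The HDM effect was larger at 3 than at 11 weeks in parenchyma for 6 of 9 members, and the difference between weeks was called negative for 20.9% of all genes and positive for 21.5%. Mxd1, the Myc antagonist, was at 181.8 to 458.1 CPM in HDM parenchyma at 3 weeks against 27.1 to 40.3 CPM with PBS, and at 63.6 to 204.6 CPM against 38.4 to 65.6 CPM at 11 weeks. Its HDM effect on the log2 scale was 2.71 ± 0.16 at 3 and 1.10 ± 0.13 at 11 weeks, and the difference was -1.73 ± 0.19 (adjusted p = 4.68e-14, in a fit of all libraries). The differences were -1.99 ± 0.63 for Cebpe, -1.19 ± 0.22 for Spi1, -0.79 ± 0.21 for Tfec, -0.58 ± 0.16 for Batf and -0.55 ± 0.16 for Irf8. For Irf5 the difference was -0.32 ± 0.15 (adjusted p = 0.0777). In airway Mxd1 alone passed the test, at -0.87 ± 0.19 (adjusted p = 0.000192), where 13.9% of all genes were called negative and 14.5% positive. Weeks of exposure, the dosing schedule and the time of collection differ together between the 3 and 11 week groups and cannot be told apart. At 3 weeks 7 members rose in each tissue, Cebpa and Cebpb being the others, beside 34.1% of all genes higher and 40.5% lower in airway, and 33.4% and 44.3% in parenchyma. The HDM effect at 3 weeks was smaller in airway than in parenchyma for Irf5 alone, with a difference of -0.53 ± 0.14 (adjusted p = 0.00671), and it was called negative for 6.44% of all genes and positive for 10.8%.

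**Figure D5:**
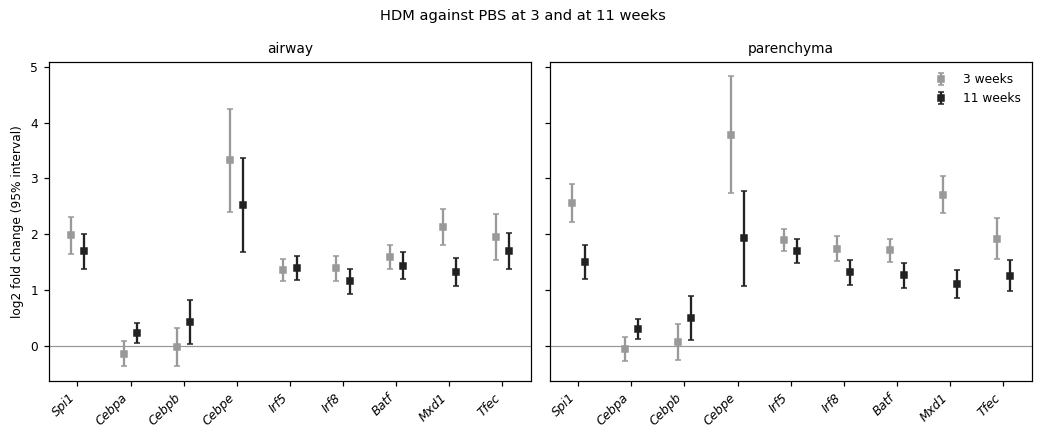
Log2 fold change of HDM against PBS at 3 weeks (light squares) and 11 weeks (dark squares) for each member, with 95% intervals, in airway and parenchyma. In parenchyma Mxd1 stands at 2.71 at 3 weeks and 1.10 at 11 weeks, and Cebpa and Cebpb are near 0 at 3 weeks.

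Factors that pair with or belong to the families of the members, 35 in all, were mostly raised by HDM at 11 weeks. In airway 22 were called higher and 2 lower, beside 31.3% and 29.8% of all genes. In parenchyma 22 were called higher and 6 lower, beside 32.6% and 26.9% of all genes. The median log2 fold change of these factors was 0.57 and 0.68, against 0.00 and 0.05 over all genes. The largest changes were Irf4, at 2.77 ± 0.18 in airway and 2.89 ± 0.21 in parenchyma, Egr2 at 2.12 ± 0.16 in airway and Spic at 2.94 ± 0.41 in parenchyma. Irf4 acts in B cells, T cells and alternatively activated macrophages, and Spic in red pulp macrophages. Smoke raised 4 and 8 of the 35, with Egr2 at 0.63 ± 0.18 and 1.11 ± 0.16, and lowered 1 and 4, beside 7.66% and 17.7% of all genes called higher and 6.03% and 18.2% lower. Smoke added to HDM lowered 10 in airway and 15 in parenchyma, where 10.1% and 14.1% of all genes were lower, with Spib, a PU.1 relative of B cells and plasmacytoid dendritic cells, at -0.88 ± 0.21 and -1.19 ± 0.23. DEX in HDM mice lowered 15 in each tissue, beside 16.0% and 16.2% of all genes, and raised 5 and 4, beside 12.5% and 12.2%, with Irf4 at -1.51 ± 0.15 and -1.38 ± 0.16. DEX alone lowered 7 and 9, beside 6.85% and 12.0% of all genes, with Spib at -1.20 ± 0.29 and -1.10 ± 0.37.

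Genes known as targets of these factors, a list of 23 receptors, adhesion molecules and granule proteins, moved with HDM and smoke. HDM raised 22 in airway and 21 in parenchyma, and smoke 18 and 21, with median log2 fold changes of 2.15, 2.22, 0.82 and 1.27, where HDM raised 31.3% and 32.6% and smoke 7.66% and 17.7% of all genes. Lcn2, which encodes the siderophore-binding lipocalin of neutrophils and epithelium, led both, at 3.98 ± 0.24 with HDM and 2.79 ± 0.23 with smoke in airway. The interaction of HDM with smoke was negative for 19 and 22 of the 23, against 11.4% and 18.7% of all genes. DEX alone raised 3 in airway and 8 in parenchyma and lowered 0 and 2, where 8.03% and 10.6% of all genes were higher and 6.85% and 12.0% lower. In HDM mice DEX lowered 6 and 10 and raised none, where 16.0% and 16.2% of all genes were lower, with Fcgr1 at -1.0 ± 0.16 in both tissues and Il1b at -0.96 ± 0.26 and -1.15 ± 0.26. The part of the members, or of cell numbers, in the changes of these listed genes was not tested.

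Of 8 myeloid growth factors 6 were tested at 11 weeks. Csf2, which encodes GM-CSF and acts upstream of PU.1 in alveolar macrophages, rose with smoke by 1.86 ± 0.28 in airway and 2.11 ± 0.22 in parenchyma, and Csf1 by 0.69 ± 0.12 and 1.27 ± 0.12. With smoke added to HDM, Csf2 rose by 0.66 ± 0.25 and 0.80 ± 0.21. Csf3, which encodes G-CSF, rose with HDM by 2.89 ± 0.57 and 2.64 ± 0.65, and with DEX in HDM mice it fell by 1.35 ± 0.48 and 2.27 ± 0.63, whereas Csf2 there rose by 0.78 ± 0.25 and 0.55 ± 0.22.

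Over all 20 groups every member had its highest median in HDM parenchyma at 3 weeks, except Cebpa, which was highest in HDM.AIR.DEX parenchyma at 127.7 CPM. The lowest medians were in PBS.AIR.DEX airway for Spi1, Mxd1 and Tfec, in PBS.AIR.DEX parenchyma for Irf5 and Cebpb, in PBS.CS.DEX parenchyma for Irf8, in PBS.AIR airway for Batf, in PBS.CS airway for Cebpa and in PBS parenchyma at 3 weeks for Cebpe. The highest median was 19.1 times the lowest for Cebpe, 9.46 for Tfec, 8.33 for Irf5, 8.16 for Mxd1, 7.61 for Spi1, 7.09 for Irf8, 4.97 for Batf, 2.62 for Cebpb and 1.77 for Cebpa. Ordered by median, all 19 neighbouring pairs of groups overlapped for 8 members, and for Irf5 18 did, with HDM.AIR airways wholly above HDM.CS airways. Neighbours in such an order have close medians by construction, so their overlap does not measure how well exposures were separated. Per kilobase of exon, group medians were 27.4 to 48.5 RPKM for Cebpa, 6.26 to 47.7 for Spi1, 3.26 to 23.1 for Irf8 and 0.113 to 2.15 for Cebpe.

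The genes whose group means over the 20 groups were most like a member's, by Pearson correlation of log2 CPM among 15840 protein-coding genes, are given as a description. The groups share HDM, smoke and DEX, so many genes correlate. For Spi1 they were Tlr2 (0.994), Plek (0.988) and Sla (0.987), and for Tfec M6pr (0.978), Tlr2 (0.975) and Plek (0.975). Irf8 was most like H2-DMb2 (0.989), Sp110 (0.988) and Zbp1 (0.987), of which H2-DMb2 serves antigen loading on MHC class II. Irf5 was most like Gm2a (0.988), Arhgdib (0.987) and Ppfia4 (0.986), Batf like Arpc2 and Plek (0.984 each), and Mxd1 like Capza1 (0.986) and Siglece (0.983). The values were lower for Cebpb, with Pip4p1 at 0.940, and for Cebpa, with Sowahc and Retreg2 at 0.870, and Cebpe was most like Gmppb (0.980).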

How the data were processed

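Bulk RNA-seq of airway and parenchyma was analysed in 203 libraries of 20 groups, taken from the sample labels. Per the labels and the study's methods, single reads of 100 bp were aligned by the authors to mm10 (STAR 2.5.1b) and quantified per gene (RSEM 1.2.31 and kallisto 0.44.0). They deposited estimated counts (expected counts) per gene, unscaled. Which quantifier made the table, and whether it used strand, is not given in the sources used here. Values that were not whole made up 20.3% of those above 0, and all values were rounded. Library totals were 13003154 to 40240733 counts, and this depth limits Cebpe, which had 2 to 10 counts in PBS.AIR airways.

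Symbols came from unversioned Ensembl identifiers, of which 42462 of 43346 matched, and exon lengths and coordinates from GENCODE M21 (GRCm38), which shares the identifier version in 23106 rows. Scaling was by TMM (edgeR 4.0.16, R 4.3.3) and testing by limma-voom (limma 3.58.1) with 1 mean per group. A gene was kept when at least 9 libraries reached the CPM that equals 10 counts at the median depth, and was called at a Benjamini-Hochberg adjusted p under 0.05 over all genes kept. The 160 libraries at 11 weeks shared a fit of 18250 genes, the 43 at 3 weeks a fit of 17381, and the difference between weeks came from all 203 (18528 genes). Errors are standard errors of the fit unless named SD. Nothing says which libraries came from the same mouse, so p-values measure the spread between libraries. No 2 libraries of a group were alike within sampling noise. Ratios to Ptprc used a pseudocount of 0.1 CPM. The fit was also run on simulated counts, with a common dispersion for all genes taken from PBS.AIR and HDM.AIR airways. Those counts lack the gene-wise spread and any pairing of tissues in the real data, so that run does not measure error rates here.

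The members and lists were chosen with earlier results of these data known. All members are named, and from each list those among the 2 largest called changes of a comparison and those needed to check a label. For a member's likeness the 3 highest correlations were taken. Other settings tried were the quasi-likelihood test of edgeR, DESeq2 1.42.0, its size factors in limma-voom, other filters on low counts, quality weights, the set of 20 library codes as a covariate, other sets of libraries in a fit, and leaving out X173 and X174, whose codes break the alternation of tissues. Leaving out X32, X63 and X155, and taking libraries of neighbouring codes as pairs (duplicateCorrelation in limma), were chosen after seeing the data.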

Additional observations from a re-analysis of the deposited data

Results flagged for a closer look

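Each comparison between effects that passed its test is given with its log2 difference (limma-voom, adjusted p under 0.05). For HDM with smoke in airway these were Spi1 (-0.87), Irf5 (-0.71), Irf8 (-0.59), Batf (-0.80), Mxd1 (-0.79) and Tfec (-0.81). In parenchyma they were Spi1 (-1.40), Irf5 (-1.35), Irf8 (-0.82), Batf (-1.14), Mxd1 (-0.91) and Tfec (-1.12). For DEX with HDM in parenchyma they were Batf (-0.48) and Mxd1 (-0.54), and for DEX with smoke Spi1 (-0.72) and Batf (-0.73). For HDM at 11 less 3 weeks they were Mxd1 in airway (-0.87) and, in parenchyma, Spi1 (-1.19), Cebpe (-1.99), Irf8 (-0.55), Batf (-0.58), Mxd1 (-1.73) and Tfec (-0.79). For HDM in airway less parenchyma at 3 weeks it was Irf5 (-0.53). All 24 differences called were negative, but they are not 24 separate results. The same 6 members were called for HDM with smoke in both tissues, and the comparisons share libraries. Of all genes, HDM with smoke was called negative for 11.4% and positive for 7.72% in airway, and for 18.7% and 17.3% in parenchyma. For HDM at 11 less 3 weeks these shares were 13.9% and 14.5% in airway, and 20.9% and 21.5% in parenchyma.

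For the 9 members in the 18 groups of 10 libraries there were 14 instances in which the highest or lowest library of a member lay far from the nearest by Dixon's criterion, where chance gives about 1 in 20. Library X60 of HDM.CS.DEX parenchyma was high for Cebpa (133.1 CPM, next 96.7) and Cebpb (37.1, next 22.8), and X180 of the same group for Tfec (29, next 22.5). Library X11 of HDM.AIR.DEX airway was high for Irf5 (48.1, next 34.8) and Irf8 (102.3, next 68.7). Mxd1 was high in X64 of 3 week HDM parenchyma (458.1, next 306.0), X165 of PBS.AIR airway (53.9, next 35), X166 of PBS.AIR parenchyma (65.6, next 47.7) and X10 of HDM.AIR parenchyma (204.6, next 130.9). The others were Cebpb in X35 (20.1, next 15.0) and Irf8 in X75 (39.2, next 28.4) of PBS.CS.DEX airway, Cebpe in X76 of PBS.CS.DEX parenchyma (1.00, next 0.509), Batf in X199 of HDM.CS.DEX airway (16.5, next 13.1) and Tfec, which was low, in X58 of HDM.CS parenchyma (15.3, next 24.1).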

How the results depend on the processing

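Of 2045 values of single members under alternative settings, 1976 kept their direction and their side of the threshold, 29 lost their call, 39 gained one and 1 changed sign. The sign changed for Irf8 under smoke in airway, which was not called, from -0.07 to 0.003 with sample quality weights. The number of members called moved by more than 1.5 times only for tests of a difference between effects. For the HDM effect of airway less parenchyma at 3 weeks it was 1, and became 2 with DESeq2, quality weights or the set of library codes as a covariate, 3 with the libraries of both times in a fit and 4 with a CPM of at least 10. For DEX with smoke in parenchyma it went from 2 to 1 with no filter on low counts, and to 1 without X173 and X174, since Spi1 was lost in both. For DEX with HDM plus smoke in parenchyma it went from 0 to 1 (Batf) with a CPM of at least 10, quality weights, the code set or the libraries of 1 tissue. For HDM at 11 less 3 weeks in airway it went from 1 to 4 with quality weights, and for DEX with HDM in parenchyma from 2 to 1 with the libraries of both times. The cause was not tested. With DESeq2 size factors the share of calls that were higher went from 62.7% to 42.1% of genes for the tissue difference of HDM at 3 weeks, and from 60.8% to 50% for that of DEX. Groups held 10 or more libraries, so libraries were not left out in turn. No label ties libraries of a mouse, but neighbouring codes hold airway and parenchyma of an exposure, and taking these 101 pairs as a replicate block was chosen after seeing the data. Deviations from the group means correlated with a median of 0.265 within pairs (-0.191 to 0.606, over 0.1 in 88) and -0.03 with other libraries of the group, and in 76 pairs the neighbour correlated best. With this block the members called went from 0 to 2 for the HDM effect of airway less parenchyma at 11 weeks (Irf5 and Tfec) and from 0 to 1 for that of smoke (Irf5), where the share of calls that were higher went from 18.4% to 42.4%. Of the other values given here it changed the calls of Irf8 between tissues without exposure and of Cebpe with DEX in HDM airways (adjusted p = 0.0403). Depth limits Cebpe.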
